A study of Rattus norvegicus with 10 samples.

Results

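The Wnt-Frizzled pathway, including the Dishevelled gene *Dvl3*, was followed in the trigeminal ganglion (TG) of rats with oral ulcerative mucositis (OUM). Its members were all probes whose gene symbol, reached through the accession of the array design, was a Wnt, Fzd, Dvl, Sfrp, Dkk or Tcf7 gene, or was *Lrp5*, *Lrp6*, *Axin1*, *Axin2*, *Ctnnb1*, *Apc*, *Gsk3b*, *Lef1*, *Wif1* or an R-spondin gene. This gave 57 probes of 49 genes among 30367 probes of the array, of which 18438 carried 1 gene symbol. *Dvl3* was selected on these same arrays for its difference between the groups, so its values are given as a description and no test is drawn from them.

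The study asked how gene expression in the TG, the ganglion that holds the cell bodies of sensory neurons of the mouth and face, differs in painful mucositis. RNA came from 10 male Wistar rats, 5 naive and 5 with OUM, and each rat gave 1 one-color Agilent array. In the OUM rats, which the labels call stomatitis, filter paper wetted with 50% acetic acid lay for 30 s on the labial fornix mucosa near the lower incisors under anesthesia, and the ganglia were taken on day 2. Naive rats had anesthesia alone and received neither paper nor vehicle. The study's methods give the age at ulcer induction as 8 weeks, and whole ganglia of both sides were taken after saline perfusion, so that the mandibular division that serves the ulcer was not separated from the rest.

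Wnt proteins are secreted lipid-modified ligands that bind Frizzled receptors together with the co-receptors LRP5 and LRP6. The Dishevelled proteins relay the signal from Frizzled to a complex of Axin, APC and GSK3 beta, which otherwise marks beta-catenin for destruction, and beta-catenin that escapes it acts with TCF and LEF factors on target genes. Separate branches run through planar cell polarity and calcium. In sensory ganglia the pathway is known from neural crest and sensory neuron development, and Wnt signalling has been studied in pain models.

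Levels are given as relative log2 signal, the log2 of the processed spot signal minus that of the array's 75th percentile, so that a value of 0 lies at the 75th percentile and dim probes are negative. A probe counted as well above background on an array when no fewer of its kept spots were marked so than not. Testing required a probe well above background on 5 of 5 arrays in 1 group or both, which 39 of the 49 members met. Of these, 37 were above background on all 10 arrays, *Rspo2* with 1 of its 2 spots on naive array 4 and on OUM array 5. Likewise, 1 of 2 spots was well above background for *Wnt9a* on OUM arrays 1 to 3 and for *Dvl3* on naive array 5. *Dvl3*, on 4 naive and 5 OUM arrays, and *Wnt9a*, on 3 naive and 5 OUM arrays, entered through the OUM arrays alone and lay just inside the limit. Of those outside it, *Dkk4*, on 1 naive and 2 OUM arrays, and *Dkk1*, on 0 and 2, came nearest. *Sfrp2* was above background on 1 naive and 1 OUM array and *Dkk2* on 1 naive array, while *Fzd4*, *Fzd5*, *Wnt7b*, *Wnt8a*, *Wnt8b* and *Wnt10b* were above background on no array. RefSeq lists 57 genes that meet the naming rule, and 8 of them (*Dvl2*, *Fzd7*, *Rspo4*, *Tcf7*, *Tcf7l2*, *Wif1*, *Wnt2* and *Wnt3a*) were not analysed here.

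The arrays correlated with each other at Pearson's r from 0.988 to 0.998 across tested features, which are not independent replicates. Of the lists that mark ganglion tissue, 8 of 8 neuron genes, 6 of 6 Schwann and peripheral myelin genes and 4 of 5 satellite glia genes were above background on every array. Genes of tissue that adjoins the ganglion were also present. For each list the relative signals of its genes were added and the log2 of the sum taken, so that bright genes weigh most. For 8 pituitary hormone and pituitary factor genes this value ran from -1.50 to 4.43 in naive and from 0.11 to 4.71 in OUM arrays. For 5 oligodendrocyte genes it ran from 0.45 to 1.64 and from 1.02 to 2.01. For the 4 endothelial genes this value lay between 0.516 and 0.655 in naive arrays and between 0.660 and 0.932 in OUM arrays, with no overlap. *Cldn5*, the brightest of them, differed by 0.27 with no overlap, where 0.753% of all features had all OUM arrays above. The groups overlapped for *Pecam1* (0.14), *Cdh5* (0.0089) and *Tek* (-0.050). Naive arrays 1, 2, 3 and 5 shared slide 1 with OUM arrays 1, 2 and 3, and naive array 4 shared slide 2 with OUM arrays 4 and 5. Naive array 4 had the smallest share of probes above background, 70.9%, against 72.8% to 77.2% on the other arrays. The part of cell makeup in the differences below was not tested, and in whole ganglia fewer cells of a type and less RNA per cell cannot be told apart.

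*Dvl3* encodes a Dishevelled adaptor that Frizzled receptors recruit at the membrane. The 250 bases before the RefSeq start are shown for *Dvl3* and for *Wnt6*, the member with the smallest p among the others, with those of *Axin2*, a common feedback target of beta-catenin, for comparison. They are read 5′ to 3′ along the gene's strand in GRCr8, from chr11:93886904-93887153 on the minus strand for *Dvl3*, chr9:83778302-83778551 on the plus strand for *Wnt6* and chr10:94398535-94398784 on the plus strand for *Axin2*. Capitals mark the TCF/LEF core letters CTTTGA, searched on both strands (TCAAAG on the other).
Dvl3: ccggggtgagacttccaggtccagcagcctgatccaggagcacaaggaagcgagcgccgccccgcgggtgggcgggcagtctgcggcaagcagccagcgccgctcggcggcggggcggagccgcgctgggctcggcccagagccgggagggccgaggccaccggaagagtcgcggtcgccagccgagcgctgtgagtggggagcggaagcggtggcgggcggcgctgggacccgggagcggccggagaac
Wnt6: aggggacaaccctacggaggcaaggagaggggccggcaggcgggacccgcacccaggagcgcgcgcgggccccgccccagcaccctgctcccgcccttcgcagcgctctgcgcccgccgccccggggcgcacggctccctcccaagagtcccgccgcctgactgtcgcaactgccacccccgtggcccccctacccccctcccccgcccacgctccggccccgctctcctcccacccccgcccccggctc
Axin2: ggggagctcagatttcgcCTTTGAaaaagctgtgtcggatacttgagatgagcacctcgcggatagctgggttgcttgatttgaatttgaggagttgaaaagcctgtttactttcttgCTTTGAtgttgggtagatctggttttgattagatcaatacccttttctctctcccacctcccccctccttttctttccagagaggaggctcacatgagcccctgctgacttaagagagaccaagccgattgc
The *Axin2* window held 2 matches, while the *Dvl3* and *Wnt6* windows held 0. Of the 34 members with an entry in the promoter table, 4 held a match (11.76%), *Axin2*, *Dkk1*, *Dkkl1* and *Wnt8a*, against 12.87% of the 21851 protein-coding promoters of this length. The member windows had a median GC content of 63.6%, against 54% for all protein-coding promoters, and a median of 17.5 CpG dinucleotides against 8. *Dvl3* had 76.8% GC and 33 CpG, and *Wnt6* had 79.6% and 28.

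*Dvl3* was higher on the OUM arrays. Its relative log2 signal was -6.41, -6.81, -6.51, -6.72 and -6.83 on naive arrays 1 to 5 and -5.90, -5.77, -6.20, -5.90 and -6.04 on OUM arrays 1 to 5. All 5 OUM values lay above all 5 naive values, on both slides. The means were -6.65 ± 0.19 (SD, n = 5) and -5.96 ± 0.16 (SD, n = 5), a difference of 0.69 or 1.62-fold. Of the 19654 features tested, 154 had an absolute difference at least as large, *Dvl3* included. Within slide 1 the difference was 0.68 and within slide 2, where naive array 4 stood alone, it was 0.75. Without the 3 arrays with the highest pituitary signal (OUM 2, naive 1 and OUM 1) it was 0.67.

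The *Dvl3* signal was dim. Each array carried 2 spots of the probe, with processed signals between 17.9 and 39.6 in the naive and between 34.9 and 78.9 in the OUM arrays, so that the 2 groups overlapped at the level of spots. In the naive arrays 7 of 10 spots were well above background and in the OUM arrays 10 of 10. The 2 spots of an array differed by an SD of 0.43 on the log2 scale, more than the SD between arrays in either group. The lowest signal of any spot well above background was 18.6 to 24.3 on the other 9 arrays and 34.1 on naive array 4. With normexp background correction, which adds an offset of 50, the difference was 0.19 in place of 0.69.

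**Figure D1:**
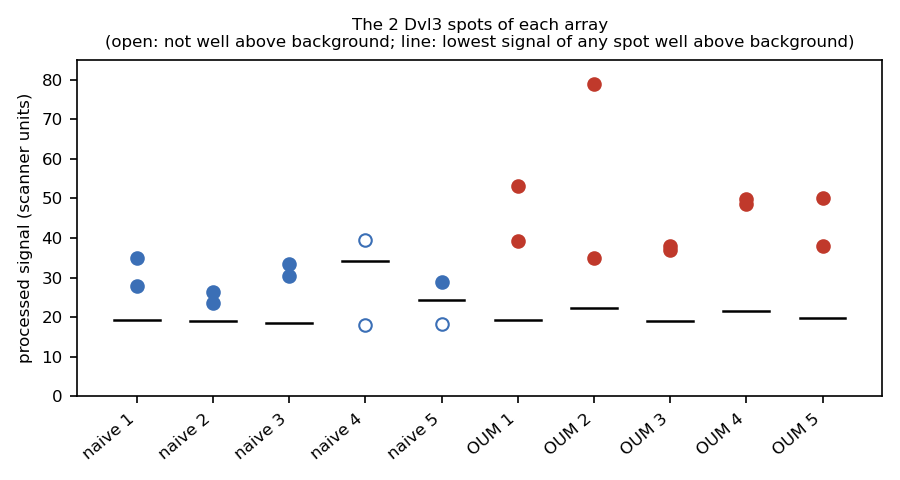
Processed signal, in scanner units, of both *Dvl3* spots on each of the 10 arrays. Filled points were well above background, open points were not, and the line on each array is its lowest signal of any spot well above background. The OUM 2 spots lie farthest apart, at 34.9 and 78.9, and no spot of naive array 4 was well above background.

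*Dvl1*, the other Dishevelled gene measured, was a bright probe with 10 spots per array. Naive arrays read 0.51, 0.44, 0.51, 0.45 and 0.47, and OUM arrays 0.56, 0.60, 0.56, 0.56 and 0.46. OUM arrays 1 to 4 lay above every naive array and OUM array 5 within the naive range. The difference was 0.072 (SE 0.040), with a limma adjusted p of 0.639 and an unadjusted exact permutation p of 0.0476. Its 95% interval ran from -0.017 to 0.16.

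Since *Dvl3* was chosen by its difference, it was left out of the counts, and 38 tested members remained. Of these, 0 passed an adjusted p of 0.05 by limma, where 2 of 19654 features did (0.0102%), and the smallest adjusted p was 0.490. At an unadjusted p under 0.05, 1 member was higher in OUM, *Wnt6* (2.63%), where 3.78% of all features were, and 2 were lower, *Rspo2* and *Apc* (5.26%), where 5.08% of all features were. These shares lay near or under the background. For 0 of the 38 did the groups of arrays not overlap, in either direction, where 0.753% of features had all OUM arrays above and 1.04% all OUM arrays below the naive arrays. The median difference was 0.046, against -0.012 over all features, and 25 members had a positive difference (65.8%), where 45.0% of features did. Over the 37 members above background on all 10 arrays, which also leaves out *Wnt9a*, 24 were positive and the median was 0.039, against -0.014 over the 18785 features held to the same filter.

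**Figure D2:**
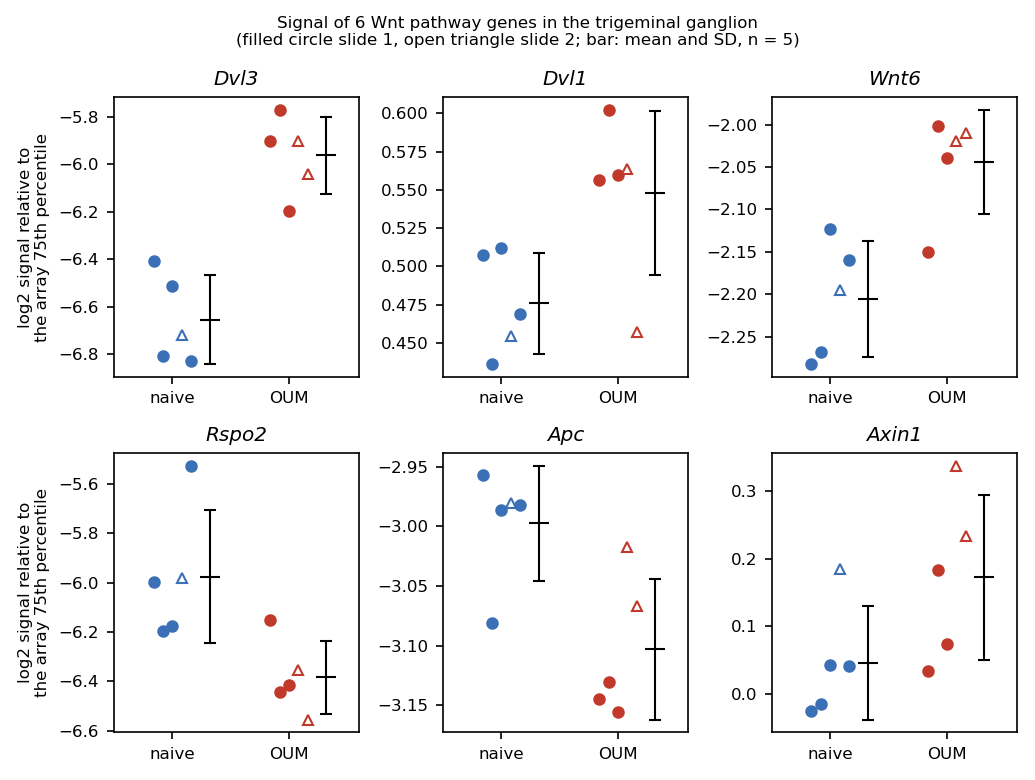
Relative log2 signal of 6 members on each array, with the mean and SD of each group (n = 5) as a bar. *Dvl3* has no overlap between naive and OUM, whereas *Dvl1*, *Wnt6*, *Rspo2*, *Apc* and *Axin1* each have at least 1 array within the range of the other group.

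Of the 17 Wnt ligand genes, 13 were tested, with differences from -0.13 (*Wnt2b*) to 0.39 (*Wnt9a*) and a median of 0.081. *Wnt6*, which encodes a secreted Wnt ligand, had naive values of -2.28, -2.27, -2.12, -2.20 and -2.16 and OUM values of -2.15, -2.00, -2.04, -2.02 and -2.01. OUM arrays 2 to 5 lay above every naive array, and OUM array 1 within the naive range. The difference was 0.16 (SE 0.048), with a limma adjusted p of 0.490 and an unadjusted exact permutation p of 0.0159. Its 2 spots per array were well above background on every array and differed by an SD of 0.053. Within slide 1 the difference was 0.14 and within slide 2 it was 0.18. *Wnt10a*, the neighbour of *Wnt6* in the RefSeq annotation, differed by 0.17 (SE 0.11, limma adjusted p = 0.672).

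*Wnt9a*, another secreted ligand, read -6.87, -7.89, -6.94, -7.31 and -6.78 in naive and -6.90, -7.46, -6.94, -6.32 and -6.22 in OUM arrays. The high values were OUM arrays 4 and 5, both on slide 2. As it entered through the OUM arrays alone, its difference of 0.39 is a description with no test. It was 0.022 within slide 1 and 1.04 within slide 2, 0.084 with normexp correction, 0.21 without naive array 2, 0.25 without OUM array 5 and 0.74 without the 3 arrays richest in pituitary genes. Only 3 of 10 naive and 7 of 10 OUM spots were well above background, and its pooled SD, 0.48, was the largest of the tested members. *Wnt4*, a ligand with known roles in kidney and gonad development, read -3.07, -2.93, -2.58, -2.36 and -2.54 in naive and -2.86, -2.38, -2.50, -2.35 and -2.36 in OUM arrays. The groups overlapped, with a difference of 0.21 (SE 0.15, limma adjusted p = 0.705). It was 0.20 within slide 1 and 0.0061 within slide 2. Without naive array 1 it was 0.11, and without OUM array 1 it was 0.30. *Wnt1*, a founding member of the family, also had its 2 highest values on OUM arrays 4 and 5, -2.45 and -2.56, against -3.57 to -3.33 on OUM arrays 1 to 3 and -3.39 to -2.88 on the naive arrays.

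Of 9 tested receptor genes, 0 passed an unadjusted p of 0.05 by limma, where 3.78% of all features did so in the higher and 5.08% in the lower direction. The median was 0.026 and the range -0.060 (*Fzd2*) to 0.16 (*Fzd9*). *Fzd9* values were -4.66, -4.76, -4.61, -4.67 and -4.47 in naive and -4.39, -4.27, -4.41, -4.60 and -4.72 in OUM arrays. OUM arrays 1 to 3, on slide 1, lay above all naive arrays, and OUM arrays 4 and 5, on slide 2, did not. The difference of 0.16 (SE 0.089, limma adjusted p = 0.644) was 0.27 within slide 1, 0.0093 within slide 2, 0.065 with normexp correction and 0.051 without the 3 arrays richest in pituitary genes. *Fzd10* read -1.45, -1.71, -1.59, -1.32 and -1.38 in naive and -1.68, -1.20, -1.51, -1.10 and -1.35 in OUM arrays, a difference of 0.12 (SE 0.12, limma adjusted p = 0.781) with overlapping groups. Without single arrays it ran from 0.056 (OUM 4 left out) to 0.20 (OUM 1 left out), and naive 2 and OUM 2 also moved it by over 1.5 times, to 0.068 and 0.082. The co-receptor *Lrp6* was held within -0.83 to -0.80 on naive arrays, with an SD of 0.014, and read -0.90, -0.97, -0.87, -0.50 and -0.55 in OUM arrays 1 to 5, so that OUM arrays of slide 1 lay below and those of slide 2 above all naive arrays. Its second probe differed by 0.011 (SE 0.043), against 0.054 (SE 0.093) for the brighter one.

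Of the 5 genes of beta-catenin and its destruction complex, *Apc*, a scaffold of the complex, was the one with an unadjusted p under 0.05. Naive arrays read -2.96, -3.08, -2.99, -2.98 and -2.98, and OUM arrays -3.14, -3.13, -3.16, -3.02 and -3.07. OUM arrays 1 to 3 lay below every naive array, and OUM arrays 4 and 5 below all naive arrays but naive 2. The difference was -0.11 (SE 0.044), with a limma adjusted p of 0.534 and an unadjusted exact permutation p of 0.0238. The value was -0.14 within slide 1 and -0.062 within slide 2, -0.072 without the 3 arrays richest in pituitary genes and -0.059 with normexp correction. Its unadjusted p was under 0.05 in 12 of 25 settings, by the methods' t-test in that setting and by limma in the others. *Axin1*, the scaffold that limits the complex, read -0.03, -0.01, 0.04, 0.18 and 0.04 in naive and 0.03, 0.18, 0.07, 0.34 and 0.23 in OUM arrays, a difference of 0.13 (SE 0.067, limma adjusted p = 0.614). On both slides the highest *Axin1* value was that of an OUM array. Over 25 settings its difference ran from 0.085 to 0.16, with an unadjusted limma p under 0.05 in 5 of them. The kinase gene *Gsk3b* differed by -0.035 (SE 0.060), *Ctnnb1*, which encodes beta-catenin, by -0.041 (SE 0.053) and *Axin2* by 0.058 (SE 0.14).

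The TCF and LEF factors bind the sites through which beta-catenin acts. *Lef1* read -3.58, -3.84, -3.71, -4.18 and -4.01 in naive and -4.01, -3.75, -3.54, -3.37 and -3.64 in OUM arrays. The difference was 0.20 (SE 0.14, limma adjusted p = 0.698), and 0.015 within slide 1 against 0.67 within slide 2, where naive array 4 held the lowest value of all 10 arrays. It was 0.12 without naive array 4, 0.12 without OUM array 4 and 0.41 without the 3 arrays richest in pituitary genes. Its second probe was dim and above background on 4 naive and 5 OUM arrays, so it entered through the OUM arrays alone. The difference of 0.20 on that probe is thus a description with no test. *Tcf7l1*, often a repressor of target genes, read -3.10, -2.85, -2.93, -2.55 and -3.03 in naive and -2.89, -2.87, -2.77, -2.55 and -2.48 in OUM arrays. That difference was 0.18 (SE 0.12, limma adjusted p = 0.672), with 0.042 within slide 2, and the second probe gave 0.037 (SE 0.13).

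Of 9 genes of secreted antagonists and their relatives, 5 were tested, with a median of -0.0090. *Sfrp1*, which binds Wnt proteins outside the cell, read -2.73, -2.27, -3.00, -2.42 and -2.61 in naive and -2.75, -3.17, -2.91, -2.72 and -2.59 in OUM arrays. Its groups overlapped, with a difference of -0.22 (SE 0.15, limma adjusted p = 0.682). It was -0.14 without naive array 2 or without OUM array 2, and -0.32 without naive array 3. *Dkkl1*, a Dickkopf-like gene known from testis, read -3.82, -3.65, -3.70, -3.38 and -3.79 in naive and -3.78, -3.82, -3.69, -3.17 and -3.25 in OUM arrays. The 3 highest values were those of slide 2, 1 naive and 2 OUM, and the difference was 0.13 (SE 0.14, limma adjusted p = 0.823). *Dkk3* differed by -0.0090 (SE 0.066) and *Sfrp5* by 0.10 (SE 0.067).

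R-spondins strengthen Wnt signalling by protecting Frizzled receptors from degradation. *Rspo2* read -6.00, -6.20, -6.18, -5.98 and -5.53 in naive and -6.15, -6.44, -6.42, -6.35 and -6.56 in OUM arrays. OUM arrays 2 to 5 lay below every naive array, and OUM array 1 within the naive range. The difference was -0.41 (SE 0.13), with a limma adjusted p of 0.495 and an unadjusted exact permutation p of 0.0238. It was -0.36 within slide 1 and -0.47 within slide 2. Without naive array 5, whose 2 spots read 40.4 and 79.8, it was -0.30. The probe was dim, with 9 of 10 spots well above background in each group and an SD of 0.38 between the 2 spots of an array, and normexp correction gave -0.14. *Rspo1* read -3.89, -4.39, -4.23, -4.15 and -3.93 in naive and -4.18, -3.93, -4.24, -4.49 and -4.06 in OUM arrays, a difference of -0.062 (SE 0.12, limma adjusted p = 0.910). *Rspo3* differed by 0.023 (SE 0.13).

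**Figure D3:**
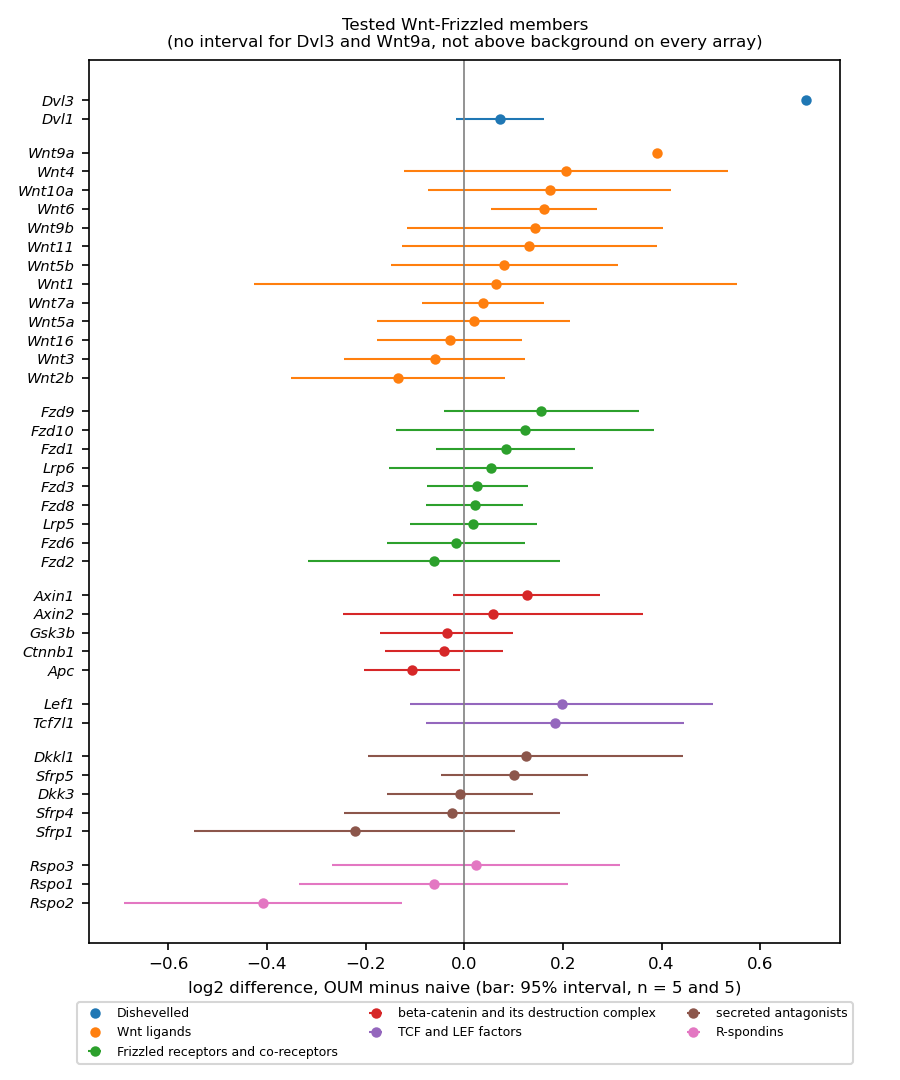
Log2 difference (OUM minus naive) of the 39 tested members, ordered by role, with the 95% interval from limma (n = 5 and 5). *Dvl3*, which was chosen by its difference on these arrays, and *Wnt9a*, both not above background on every array, are drawn without an interval, and the intervals of *Wnt6*, *Apc* and *Rspo2* are the ones that leave out 0.

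The precision set by 5 arrays per group differed between members. Over the 37 members above background on all arrays, the 95% intervals reached from 0.089 (*Dvl1*) to 0.49 (*Wnt1*) to either side, with a median of 0.21, and 19 of them lay wholly within 0.3 of no difference. Besides *Dvl3*, *Rspo2* and *Wnt9a* were the members with an absolute difference over 0.3, where 4.89% of all features had one. The pooled SD had a median of 0.16 over the members and 0.13 over all features. The SD was larger in OUM than in naive arrays for 25 of 39 members, where this held for 63.3% of features.

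Other genes of the pathway were taken from 7 lists of 110 genes, of which 83 were tested. Of these, 0 passed an adjusted p of 0.05 (0.0102% of all features), 3 were higher at an unadjusted p under 0.05 and 3 lower, 3.61% each, against 3.78% and 5.08%, and the median was 0.026. *Tle3*, a Groucho corepressor of TCF factors, read -1.91, -1.83, -1.89, -1.81 and -1.97 in naive and -1.73, -1.67, -1.71, -1.68 and -1.78 in OUM arrays. All OUM values lay above all naive values, with a difference of 0.17 (SE 0.044, limma adjusted p = 0.428). *Invs*, which encodes the polarity protein inversin, lay lower on every OUM array than on any naive array, by 0.15 in the mean (limma adjusted p = 0.502). Groups without overlap were thus found for 1 of 83 genes in each direction, near the 0.753% higher and 1.04% lower of all features. *Pygo2*, a nuclear cofactor of beta-catenin, differed by 0.11, *Dact3*, an antagonist of Dishevelled, by 0.17, *Csnk1a1*, a kinase that primes beta-catenin for destruction, by -0.20, and *Plcb4*, a phospholipase of the calcium branch, by -0.18, each with overlapping groups. Of 12 tested common target genes, 0 reached an unadjusted p of 0.05, with *Ccnd1* at 0.11 (SE 0.086), *Myc* at 0.044 (SE 0.064) and *Sp5* at 0.075 (SE 0.18).

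**Figure D4:**
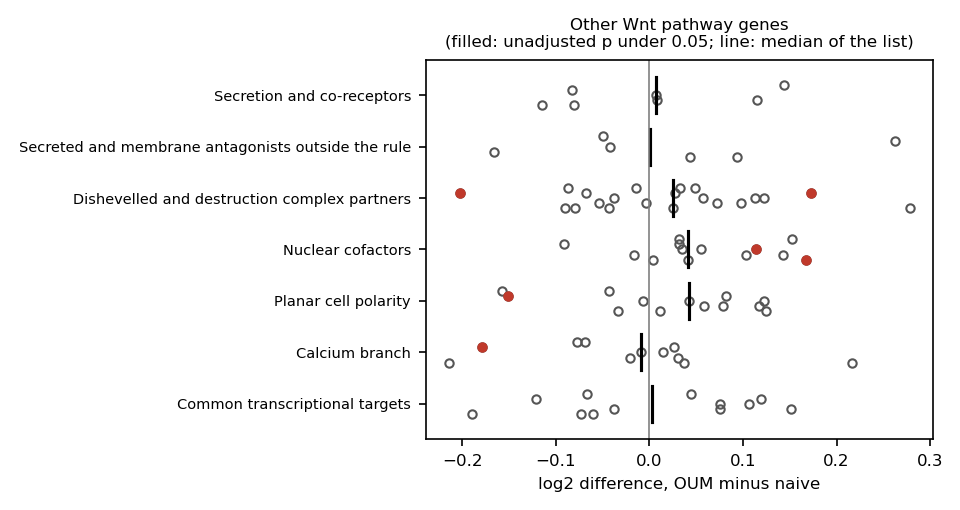
Log2 difference (OUM minus naive) of the 83 tested genes of the 7 other pathway lists, 1 point per gene, with the median of each list as a line. Filled points had an unadjusted p under 0.05, 3 higher and 3 lower, and the medians lie between -0.0089 and 0.042.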

How the data were processed

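RNA of 10 ganglion samples, 5 naive and 5 OUM as the labels give them, was read on Agilent one-color arrays. Per the file headers and labels, the deposited intensities were made by the authors with Agilent Feature Extraction 10.7.1.1, which subtracts background, and the array design used the rn4 build. The authors' value table holds linear signal values normalized with GeneSpring. It was checked against the scanner values, from which it differed by 1 factor per array within 0.05 on the log2 scale, and it served as an alternative. Its column medians were 0.114 to 0.120, and no gene centring was seen. Outlier and control spots were left out, spots of a probe averaged, and log2 values set against the 75th percentile of each array. The brightest probe stood for a gene. The groups were compared with limma 3.58.1 in R 4.3.3 (lmFit and eBayes, two-sided, Benjamini-Hochberg over all 19654 features, probes without a symbol included), checked on simulated data, and single members by an exact permutation test over 252 assignments, whose smallest p is 0.00794. Each array is a separate rat, and p-values measure the spread between these arrays.

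Names and promoters came from RefSeq (GRCr8), and no coordinate of the array was used. The members, lists and tests were chosen with earlier results of these data known. Named with every array's value were the Dvl genes, members with an unadjusted p under 0.05 or with groups that did not overlap, and otherwise the 2 tested members of a role with the largest absolute difference. *Lrp6*, *Wnt1* and *Wnt10a* were singled out after their values were seen, as were the members and target genes given by difference alone. Alternatives were the array median, quantile and normexp scaling, other filters, other handling of probes, the slide and the replicate block, the methods' t-test, the authors' table, and leaving out arrays.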

Additional observations from a re-analysis of the deposited data

Results flagged for a closer look

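Of 30 groups of 5 arrays (15 named members in naive and OUM), 2 held an array that stood apart from the other 4 by Dixon's criterion of 0.71, where chance flags about 1 in 20. *Apc* read -3.081 on naive array 2, against -2.987 for the next lowest naive array. *Wnt6* read -2.150 on OUM array 1, against -2.039 for the next lowest OUM array.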

How the results depend on the processing

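In each alternative run, 0 members passed an adjusted p of 0.05, and the median difference of the members stayed between 0.00013 (slide 1 alone) and 0.0996 (slide 2 alone). The *Dvl3* difference was 0.187 with normexp correction and 0.646 to 0.755 with 1 array left out. The counts of higher members in the alternatives were made with *Dvl3*, which was selected on these arrays, among the members. They are thus a description, and no test is drawn from them. *Dvl3* left the count when all 10 arrays had to be above background, as 4 naive arrays were. *Wnt6* stayed in it. With *Dvl3* counted, the members higher at an unadjusted p under 0.05 were 2 of 39 (3.78% of all features). They numbered 1 when all 10 arrays had to be above background (3.63% of features), 4 when slide entered as a block (4.67%), 8 within slide 2 (9.23%) and 4 without the 3 arrays richest in pituitary genes (4.56%). The lower members, 2 against 5.08% of features, numbered 1 with quantile scaling (3.89%), 0 with normexp (5.21%), 1 with the authors' table (3.54%) and 1 without the pituitary-rich arrays (3.81%). *Apc* missed the threshold in each of these and *Rspo2* also with normexp. Leaving out 1 array gave 2 higher (2.70% to 3.80% of features), or 4 without naive 4 (3.94%), OUM 1 (5.60%) or OUM 5 (4.11%). It gave 2 lower (3.39% to 5.68%), or 1 (3.48% to 7.24%) without naive 1, 4 or 5 or OUM 1, 2 or 3. In each, *Apc* missed the threshold. Of all features, 150 passed an adjusted p of 0.05 within slide 2 alone, where 1 naive array stood for its group, and 0 to 3 elsewhere. *Dkkl1* turned to -0.025 within slide 1, and *Rspo1* ran from -0.13 to 0.016 as 1 array was left out, positive without OUM 4. The methods' t-test gave 3 higher and 2 lower members at an unadjusted p under 0.05 and 0 after Benjamini-Hochberg adjustment. By the same threshold, the tested features counted 743 higher with 999 lower as reported, 861 with 1883 within slide 1 and 1813 with 689 within slide 2. The cause was not tested. Positive members were 65.8% without *Dvl3* and 26 of 39 with it. That number moved with the arrays used, to 20 within slide 1, 28 within slide 2 and 22 without OUM 4. The median over all features was -0.042 within slide 1 and 0.025 within slide 2.

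The replicate numbers were not taken as pairs. Same-numbered arrays correlated at -0.012, -0.049, 0.13, 0.33 and -0.093 in their deviations from the group means, and 0 of 5 had its own number as best partner. Arrays numbered 1 to 4 share a slide with their namesake, so the check is mixed with slide and cannot exclude pairs in processing. A fit with the replicate block gave 5 higher and 1 lower members, against 3.46% and 3.84% of all features, with *Apc* past the threshold no longer. The higher members there included *Wnt9a*, and *Dvl3* was a member too, so their count is a description with no test. Of the 6 genes whose spots were examined, *Dvl3*, *Wnt9a* and *Rspo2* had spots not well above background, and 5 arrays per group limit how precise any value is.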
